A study of Arabidopsis thaliana with 12 samples.

Results

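The chloroplast NADH dehydrogenase-like complex, NDH, sits in the thylakoid membrane, takes electrons from reduced ferredoxin and passes them to plastoquinone. It takes part in cyclic electron flow around photosystem I and in chlororespiration, the reduction of plastoquinone in the dark. Its subunits are encoded partly in the plastid genome and partly in the nucleus, and many nuclear proteins act only in its assembly or in the editing of its plastid transcripts. Plants that lack the complex lose the brief rise of chlorophyll fluorescence that follows the end of illumination, and the chlororespiratory reduction (CRR) genes were found through that loss.

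Of the 3439 probes on the array, 692 name exactly 1 gene in the platform annotation, and 5 of these name a nuclear gene of the NDH complex that was chosen here by name. NdhS (AT4G23890) and NdhN (AT5G58260) are subunits. CRR41 (AT1G51100) is an assembly factor, CRR21 (AT5G55740) is an RNA-editing factor, and PIFI (AT3G15840) is an associated factor. Among the 692, each of these 5 genes had 1 probe, and all 5 were tested. The names were chosen with earlier results of these data known, so the members are no random sample of the pathway.

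RNA came from wild-type Arabidopsis thaliana of the ecotype Landsberg. The light group held 6 samples of plants that received light for 30 min following 12 h of darkness, and the dark group held 6 samples of plants adapted to the dark for 12 h. Neither age, tissue nor the number of plants behind a sample is stated in the labels. Without a group left in the dark for the extra 30 min, exposure to light and the passing of time cannot be told apart, and in whole tissue fewer cells of a type cannot be told apart from less RNA per cell. Samples carry numbers 1 to 6 in each group.

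Deposited intensities were taken as linear and are in an unstated unit. Each dark array had 2 probes at 100, its highest value, whereas no light array went above 77.6. Whether the values were scaled or capped is not stated. Array totals ranged between 3532 and 3666 in light and between 3247 and 3321 in the dark, and array medians averaged 0.678 ± 0.00794 in light and 0.467 ± 0.0202 in the dark (SD, n = 6 each). On the values as deposited the median log2 difference of all probes was 0.44. Log2 differences below were therefore taken after quantile normalization, which left that median at 0.01. Of 6 fixed markers of photosynthetic tissue 4 were measured (LHB1B2, PSAN, PSBW and PRK), and none was near 0. Their summed intensity ranged over 24.9 to 29.5 in light and 35.9 to 46.6 in the dark, so it was lower in light, and its part in the results below was not tested. The markers did not move alike: LHB1B2 averaged 5.83 in light and 17.5 in the dark, whereas PSBW averaged 17.6 in light and 16.8 in the dark. None of the 3 fixed root and pollen markers had a probe of its own.

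Of the 5 transcripts 2 were higher in light by the test, NdhS and CRR41, and 0 were lower. Over all probes 23.6% were called higher and 29% lower by the same test, limma with 6 samples against 6 and a Benjamini-Hochberg adjusted p under 0.05. The members' count of 2 in 5 stands beside that background and shows nothing particular to them. The median log2 difference of the 5 was 0.52, against 0.01 for all probes and 0.04 for the 692 probes that name 1 gene. NdhN, CRR21 and PIFI did not pass the test.

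NdhS is the subunit on the stromal side of the complex that carries an SH3-like fold and is needed for efficient electron transfer from ferredoxin. Its deposited intensity in light samples 1 to 6 was 9.89, 10.1, 10.3, 10.5, 11.5 and 12.7. In dark samples 1 to 6 it was 2.11, 2.45, 7.19, 7.34, 5.77 and 2.15. Every light value lay above every dark value, and the dark values fell into a low set, samples 1, 2 and 6, and a higher set, samples 3, 4 and 5. Means were 10.8 ± 1.07 in light and 4.50 ± 2.54 in the dark (SD, n = 6 each). After normalization NdhS rose by a log2 difference of 1.68 ± 0.32 (SE), which is 3.20-fold with a 95% interval of 1.98 to 5.16 (limma adjusted p = 0.000704). Groups that did not overlap upward after normalization were found for 18.9% of all probes.

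The NdhS probe was among the brightest of its arrays in both groups. Its rank within the array lay between the 99.2 and 99.5 percentiles in light and between the 94.2 and 98.7 percentiles in the dark. Such a rank orders probe signals and not amounts of transcript. The difference ranked 21 from the top among the 692 probes that name 1 gene.

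NdhN belongs to the arm of the complex that reaches into the stroma. It had deposited intensities of 0.764, 0.725, 1.82, 1.50, 2.08 and 1.64 in light samples 1 to 6, against 0.411, 0.434, 1.52, 1.18, 1.57 and 1.23 in dark samples 1 to 6. The groups overlapped, and samples 1 and 2 were the lowest of both groups. Means were 1.42 ± 0.559 in light and 1.06 ± 0.515 in the dark (SD, n = 6 each). The normalized log2 difference was 0.20 ± 0.39 (SE), with a 95% interval of -0.66 to 1.06 (limma adjusted p = 0.698).

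Within equal sample numbers NdhN varied far less than across them. The normalized light minus dark difference was 0.28, 0.15, 0.09, 0.15, 0.30 and 0.21 for numbers 1 to 6, positive each time. Over all probes, 29% were higher in light for all 6 numbers. With the number as a block NdhN was called higher, at the same 0.20 with an SE of 0.07 (limma adjusted p = 0.0397). It was not called once consecutive numbers were averaged and the pair was kept as a block (limma adjusted p = 0.280), and centring each array on its median put the difference at -0.03.

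**Figure D1:**
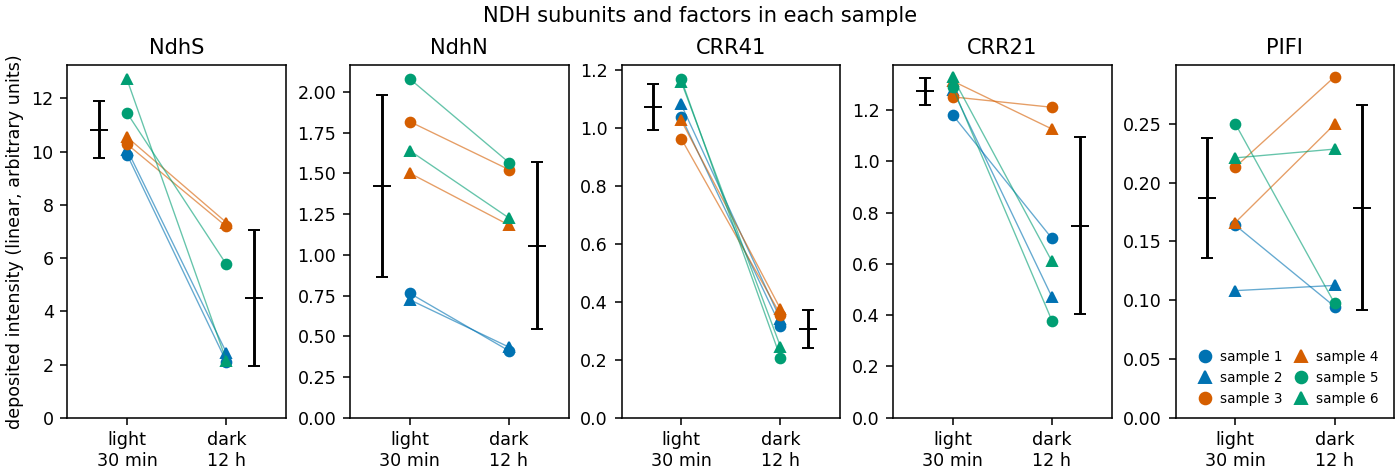
Deposited intensity (linear, arbitrary units) of the 5 genes in each of the 6 light and 6 dark samples, with lines joining equal sample numbers, 1 colour for each pair of consecutive numbers, and black bars for mean ± SD. NdhS and CRR41 had no overlap between the groups, and NdhN was low in samples 1 and 2 of both groups.

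CRR41 is a stromal protein that acts in building the arm to which NdhN belongs, and it is not part of the finished complex. Light samples 1 to 6 stood at deposited intensities of 1.04, 1.08, 0.964, 1.03, 1.17 and 1.16. Dark samples 1 to 6 stood at 0.317, 0.340, 0.356, 0.376, 0.208 and 0.246. The groups were far apart, and each group was narrow compared with the gap. Means were 1.07 ± 0.0802 in light and 0.307 ± 0.0662 in the dark (SD, n = 6 each), the smallest spread relative to the dark mean among the 5 genes, at 21.6%. CRR41 rose by a normalized log2 difference of 1.36 ± 0.14 (SE), which is 2.57-fold with a 95% interval of 2.09 to 3.15 (limma adjusted p = 3.43e-06). The difference was between 1.02 and 2.04 for the 6 sample numbers.

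CRR21 is a pentatricopeptide repeat protein that edits the plastid transcript ndhD, which encodes a membrane subunit of the complex. Its light intensities were 1.18, 1.28, 1.25, 1.31, 1.29 and 1.33 in samples 1 to 6, against dark intensities of 0.699, 0.471, 1.21, 1.13, 0.378 and 0.610. The light samples were almost level, whereas dark samples 3 and 4 stood close to them and the other 4 dark samples lay well below. Means were 1.27 ± 0.0526 in light and 0.749 ± 0.344 in the dark (SD, n = 6 each). The normalized log2 difference was 0.52 ± 0.22 (SE), with a 95% interval of 0.0448 to 0.999, and it missed the threshold after adjustment over all probes (limma adjusted p = 0.0633).

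The CRR21 value varied with the samples kept. The differences of numbers 3 and 4 were -0.18 and -0.02, against 0.32, 0.95, 1.32 and 0.74 for numbers 1, 2, 5 and 6. Without numbers 3 and 4 the log2 difference was 0.83 and was called (limma adjusted p = 0.00511). It was 0.27 without numbers 5 and 6 (limma adjusted p = 0.387) and 0.47 without numbers 1 and 2 (limma adjusted p = 0.239). On the values as deposited it was 0.89 (limma adjusted p = 0.00670), where the median of all probes was 0.44 and 1715 of 3439 were called higher. With the number as a block CRR21 was called by a narrow margin (limma adjusted p = 0.0496). With consecutive numbers averaged, 3 against 3, it was not called, either without a block (limma adjusted p = 0.208) or with the pair as a block (limma adjusted p = 0.107).

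PIFI is a chloroplast protein needed for the fluorescence rise after illumination and is not counted as a subunit. Its deposited intensities were 0.164, 0.108, 0.213, 0.166, 0.250 and 0.221 in light samples 1 to 6, against 0.0946, 0.113, 0.290, 0.250, 0.0973 and 0.228 in dark samples 1 to 6. The groups overlapped widely, and the probe was dim in all samples. Its rank lay between the 6.92 and 13.8 percentiles of the light arrays and between the 6.95 and 24.5 percentiles of the dark arrays. After normalization 3 light values and 2 dark values were at the floor, so the size of any difference depends on the floor.

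For PIFI the normalized log2 difference was -0.24 ± 0.24 (SE), with a 95% interval of -0.77 to 0.29 (limma adjusted p = 0.426). By sample number it ran from -0.89 in number 3 to 0.62 in number 5, and 3 of the 6 were positive. Number 1 was at the floor in both groups and number 2 in light, so their values of 0.12 and 0.14 depend on the floor. On the deposited intensities 2 of the 6 numbers were positive. The direction for PIFI is not settled. The values as deposited gave 0.20, which is below the median of all probes at that scaling, 0.44. Leaving out numbers 3 and 4 gave 0.08, with values at the floor in numbers 1, 2 and 5.

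**Figure D2:**
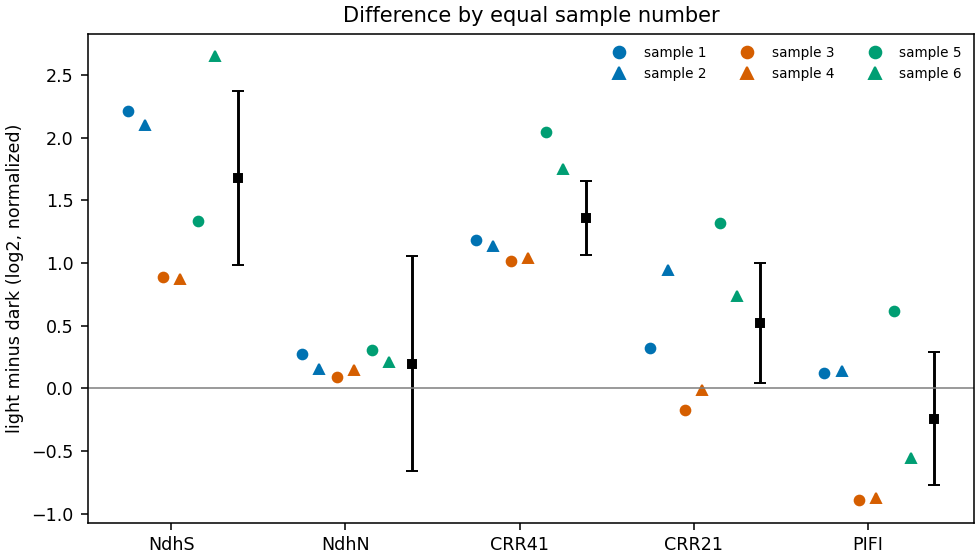
Normalized light minus dark difference (log2) of each gene for equal sample numbers, in 1 colour for each pair of consecutive numbers, with black squares and bars for the mean over all samples and its 95% interval from limma. NdhS, NdhN and CRR41 were above 0 for all 6 numbers, and numbers 3 and 4 gave the lowest values of CRR21 and PIFI.

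Across the 6 sample numbers the difference of NdhN had the smallest log2 SD, 0.08, against 0.75 for NdhS, 0.43 for CRR41, 0.58 for CRR21 and 0.62 for PIFI. Numbers 3 and 4 averaged 0.88 for NdhS, against 2.16 for numbers 1 and 2 and 1.99 for numbers 5 and 6. For CRR41 the averages were 1.16, 1.03 and 1.89 for numbers 1 and 2, 3 and 4, and 5 and 6. For CRR21 they were 0.63, -0.10 and 1.03, and for PIFI 0.13, -0.89 and 0.03. NdhN stood at 0.21, 0.12 and 0.26.

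The unevenness lay mainly in the dark samples. In NdhS, CRR41, CRR21 and PIFI the highest deposited dark values were those of samples 3 and 4, a feature shared by 17.8% of all probes. Dark arrays 3 and 4 also had the highest medians of the dark arrays, at 0.491 each. After normalization the feature held for NdhS and CRR21 only. Dark sample 2 of CRR41 (log2 -1.22) then stood above sample 3 (-1.27), and dark sample 6 of PIFI (-1.81) above sample 4 (-1.84). The normalized log2 SD of NdhS was 0.21 in light and 0.82 in the dark, and that of CRR21 was 0.07 in light and 0.57 in the dark. Among the 2758 probes never at the floor the median SD was 0.18 in light and 0.29 in the dark, and 76.6% were more variable in the dark. The ratio of dark to light SD of CRR21, at 7.69, exceeded that of most of these probes (percentile 98.6), and that of NdhS, at 3.87, stood at percentile 91.2. For NdhN the SD was 0.74 in light and 0.75 in the dark. What the sample numbers stand for was not tested.

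Against the 692 probes that name 1 gene, NdhS was a bright probe with a large rise, CRR41 lay near the middle of the brightness range, and PIFI lay at its dim end. The median log2 difference was 0.94 for the pair of subunits and 0.52 for the 3 factors. The subunits spanned 0.20 to 1.68 and the factors -0.24 to 1.36, so both the subunits and the factors held a gene that was called and at least 1 that was not.

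**Figure D3:**
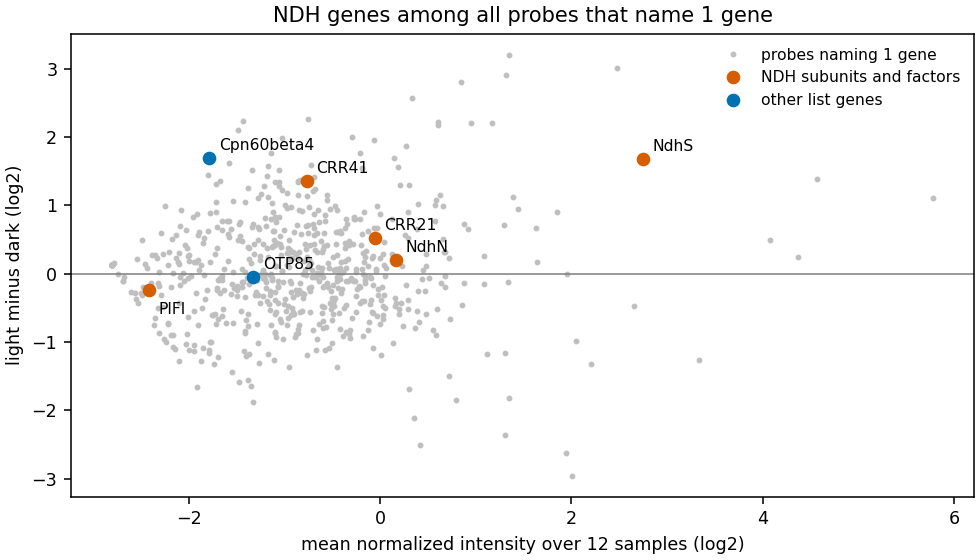
Normalized light minus dark difference (log2) against the mean normalized intensity over 12 samples (log2) for the 692 probes that name 1 gene, with the 5 NDH genes in orange and 2 further NDH factors in blue. NdhS stands at a difference of 1.68 and CRR41 at 1.36, while NdhN, CRR21 and PIFI stand between -0.24 and 0.52.

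A gene called and another not called do not thereby differ, so subunit was set against subunit and factor against factor within each array. The log2 value of one was subtracted from that of the other, which removes any factor common to an array. Such a value has no meaning as a ratio of transcript amounts, and only its change between groups is read. NdhS minus NdhN averaged 3.04 ± 0.58 in light and 2.07 ± 0.67 in the dark (SD, n = 6 each), on the values as deposited. The difference of 0.97 passed an exact two-sided permutation test over 924 assignments (p = 0.0130, or 0.0130 adjusted over the 4 comparisons computed). After quantile normalization it was 1.48 and after cyclic loess 1.85, so its size depends on the scaling. The groups overlapped slightly, at 2.46 to 3.80 in light and 0.81 to 2.63 in the dark. By consecutive numbers the difference was 1.32, 0.22 and 1.36, and without any 1 such pair of numbers the adjusted p of the permutation test was 0.0571 to 0.0857.

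Among the factors, CRR41 minus CRR21 ranged from -0.38 to -0.14 in light and from -1.77 to -0.47 in the dark. The light minus dark difference was 0.94, and the groups did not overlap (exact permutation p = 0.00216, the smallest that 924 assignments allow, adjusted p = 0.00433). The other 2 comparisons paired a factor with PIFI and are not read, since 5 of the 12 PIFI values were at the floor. In both comparisons the transcripts changed unequally, which does not show that either stayed the same. These tests count the 12 samples as independent. Keeping the sample number as a block put the adjusted p of the permutation test at 0.03125 for NdhS minus NdhN and for CRR41 minus CRR21. With consecutive numbers as units, 3 against 3, the smallest possible p is 0.1.

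**Figure D4:**
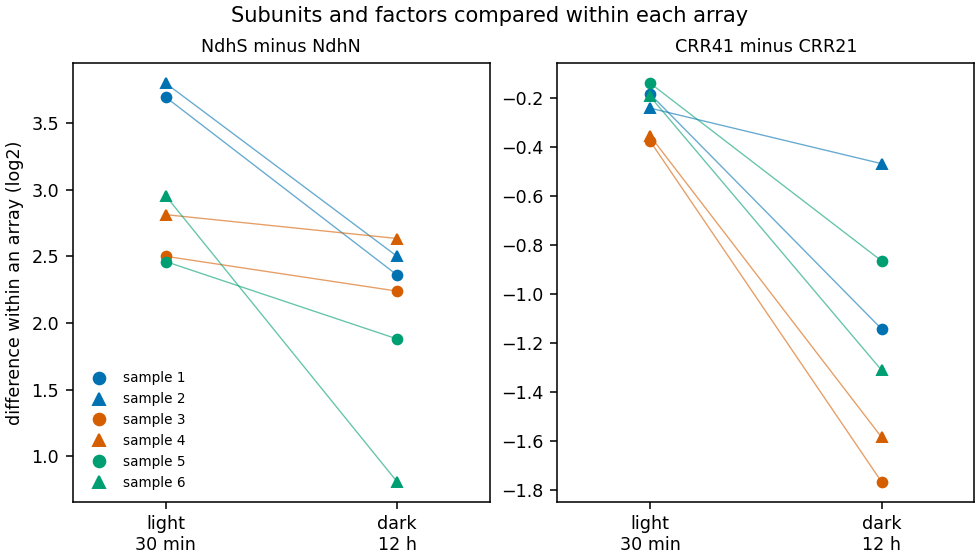
Difference of log2 deposited intensity between both subunits and between the factors CRR41 and CRR21 within each array, in the 6 light and 6 dark samples, with lines joining equal sample numbers. The light values of CRR41 minus CRR21 all lie above the dark values, and NdhS minus NdhN changes least in samples 3 and 4, by 0.22 on average.

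The wider pathway was barely covered. Of 45 genes in 7 lists written from general knowledge, which include the 5 members, only 2 further genes had a probe naming 1 gene. A list gene was also named by 1 probe that names several genes, and that probe was not read. Of 18 nuclear NDH subunits 2 were measured, NdhS and NdhN, with 1 called higher and 1 not called. Of 8 assembly factors 2 were measured, CRR41 and Cpn60beta4, and both were called higher. Of 8 genes for the maturation and editing of ndh transcripts 2 were measured, CRR21 and OTP85, and neither was called. Over all probes 23.6% were called higher and 29% lower, and counts this small show nothing particular to a role. The antenna proteins that link the complex to photosystem I, the PGR5 route of cyclic flow, and ferredoxin with its reductase and the plastid terminal oxidase had 0 genes measured in this way.

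Cpn60beta4 (AT1G26230), a chaperonin subunit needed to fold the NDH subunit NdhH, had a deposited intensity of 0.490 at the lowest, 0.642 at the median and 0.759 at the highest in light, against 0.0597, 0.132 and 0.184 in the dark. The groups did not overlap. Its normalized log2 difference was 1.70 ± 0.12 (SE, limma adjusted p = 2.40e-07). For Cpn60beta4, 2 dark values were at the floor, and the difference ran from 1.32 to 2.05 over other floors.

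OTP85 (AT2G02980), a pentatricopeptide repeat protein that edits ndhD like CRR21, had light intensities of 0.344 at the lowest, 0.473 at the median and 0.571 at the highest. Its dark intensities were 0.230, 0.329 and 0.451 in the same order. The groups overlapped, and the normalized log2 difference was -0.05 ± 0.17 (SE, limma adjusted p = 0.831). On the values as deposited it was 0.49 and was called (limma adjusted p = 0.0194), close to the median of all probes at that scaling, 0.44.

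The genes whose profile lay nearest were sought by the root mean square difference over the 12 samples of normalized log2 values, each centred on its own mean. For NdhS they were AT3G06870 at 0.33 and AT3G20490 at 0.35, against a median distance of 1.03 over 496 candidates. For NdhN they were AT5G42070 at 0.30 and AT2G29870 at 0.34 (median 0.81). For CRR41 they were AT3G04650 at 0.19 and AT5G13260 at 0.20 (median 0.78). CRR21 was closest to AT5G50350 at 0.22 and to THIC, an enzyme of thiamine synthesis, at 0.24 (median 0.61). PIFI was closest to AT3G09490 at 0.25 and AT5G63830 at 0.26 (median 0.60 over 497 candidates), with 5 of its 12 values at the floor. The nearest genes lie below the median by selection, so the medians give a scale and test nothing. Between members the distance ran from 0.48 for CRR21 and PIFI to 1.08 for NdhS and PIFI. Under each of the other scalings 6 of the 10 nearest genes remained. Centring arrays on their median leaves these distances unchanged, so the values as deposited and the centred values are 1 check. Both genes nearest to NdhS were lost there.

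Scaling moved the values of NdhS more than those of CRR41. The log2 difference of NdhS was 1.48 as deposited, 0.94 with arrays centred on their median and 2.08 after cyclic loess. That of CRR41 was 1.83, 1.30 and 1.30 in the same order. Both genes were called higher under all 4 scalings, though as deposited 1715 of 3439 probes were called higher. With consecutive numbers averaged, 3 against 3, both were still called higher, NdhS with a limma adjusted p of 0.0217 and CRR41 with one of 0.00369, where 15.1% of all probes were called higher. With the sample number as a block 4 of the 5 were called higher, NdhN and CRR21 in addition, where 28.1% of all probes were called higher. Neither of these additions was called with consecutive numbers averaged and the pair as a block.

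**Figure D5:**
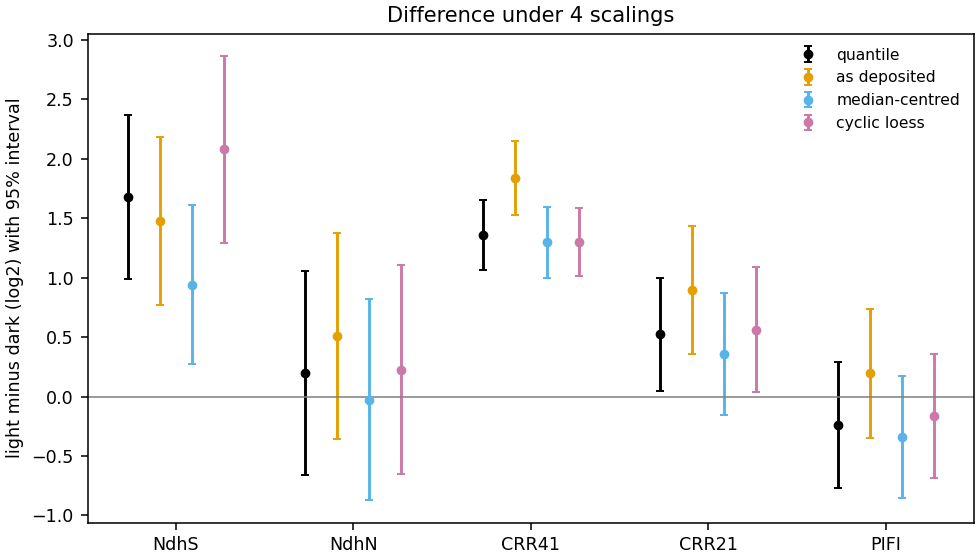
Light minus dark difference (log2) of the 5 genes with its 95% interval from limma, 6 samples against 6, under quantile normalization, as deposited, with arrays centred on their median and after cyclic loess. NdhS and CRR41 lie above 0 under all 4 scalings, and PIFI lies at 0.20 as deposited but below 0 under the other 3. The median of all probes as deposited is 0.44.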

How the data were processed

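The authors deposited hybridization intensities, taken here as linear, of 3439 probes in 12 samples. Per the labels 6 were of light and 6 of dark plants, grouped and numbered by title. Scanner, background correction and scaling: not given in the sources used here. The number of arrays limits the precision. Values were quantile-normalized, raised to a floor (5th percentile of the positive values in each column) and put on the log2 scale. The contrast of light with dark was fitted over all probes by limma 3.58.1 in R 4.3.3, without a block. Of the 692 probes naming 1 gene, 690 matched the TAIR10.1 table. No coordinates or sequences were used.

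The members, gene lists and alternatives were chosen with earlier results of these data known. Named were the 5 members, measured list genes, and the 2 nearest profiles of each member among probes brighter than the 25th percentile. The within-array comparisons were added after the values were seen.

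In the fits with a block, sample numbers were taken to pair the samples. Deviations from the group means of equal numbers correlated at 0.41 to 0.65 across probes, above 0.1 in each pair. Neither the main fit nor the permutation test over 924 assignments used this pairing. Consecutive numbers also resembled each other within a group (0.36 to 0.47 in light, 0.42 to 0.60 in the dark). No label says that samples came from separate plants, so p-values measure the spread between samples that may be partly technical.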

Additional observations from a re-analysis of the deposited data

How the results depend on the processing

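NdhS and CRR41 were called higher under all 15 alternatives run, with log2 differences of 0.94 to 2.08 and 1.09 to 1.83 and limma adjusted p-values up to 0.0217 and 0.00369. Without 2 consecutive numbers, NdhS ranged from 1.44 to 2.07, NdhN from 0.17 to 0.24, CRR41 from 1.09 to 1.53, CRR21 from 0.27 to 0.83, PIFI from -0.43 to 0.080 and OTP85 from -0.093 to 0.025. With the replicate number as a block 4 members were called, NdhN at 0.20 and CRR21 at 0.52 among them; the block changed no other call. The log2 difference of CRR21 was also called as deposited, at 0.89, and, among probes above the median only, at 0.52 (limma adjusted p = 0.0488). NdhN stood at -0.028 with centred arrays, PIFI at 0.20 as deposited, and OTP85 at 0.49 as deposited. The median of all probes as deposited was 0.44. Probes called numbered 1077 above the median level and 1199 with consecutive numbers averaged, against 1807, with fewer probes or samples entering. The split of higher and lower calls was 811 and 996, and 1715 and 479 as deposited.

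Within arrays, leaving out 2 numbers put NdhS minus NdhN at 0.77 to 1.34 and CRR41 minus CRR21 at 0.76 to 1.12. Adjusted p-values were then 0.0381 to 0.0857, with only 4 samples a group. PIFI and Cpn60beta4 fell below both level filters and OTP85 below the median, so they have no value there. No background measure accompanies the values, which limits what the dim PIFI probe can show.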
